A study of Mus musculus with 18 samples.

Results

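Lysosome genes were described as a set of 42 genes for proteins of the lysosome and its acidification, a pathway placed under the transcription factors TFEB and MITF in other systems. The members were listed by name, and the probe whose platform annotation carried that name was taken. All 42 were measured, among 19084 named genes and 26423 probes. Where a gene had several probes (8 members), the probe with the highest mean over the 18 arrays stood for it.

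The series measured RNA of 18 mouse samples on single-dye microarrays, with 6 groups of 3 arrays, and asked which genes distinguish basophils from mast cells and which depend on Cebpa, the gene of the myeloid transcription factor C/EBPα. Fresh basophils were purified from the bone marrow of C57Bl/6 mice 3 days after an injection of IL-3 complexed with an antibody to it. Mast cells were grown from bone marrow for 4 weeks in IL-3 at 20 ng/ml. The other 4 groups were purified basophils kept for 5 days in IL-3 at 20 ng/ml, either Cebpa +/+ RosaYFP/creER (called wild type here) or Cebpa f/f RosaYFP/creER (called floxed), each without drug or with 100 nM 4-hydroxytamoxifen for 5 days. All strains were C57Bl/6. The wild type controls thus carried the Cre recombinase and the reporter as well, and the treated controls received the drug; no genotype was given for the fresh basophils and the mast cells. Whether the 3 arrays of a group stem from different animals or cultures was not stated in the labels, and p-values therefore reflect only the spread among these arrays, which may be technical.

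Lysosomes digest protein, sugar polymers and lipid with acid hydrolases, in a lumen kept acid by the vacuolar proton pump (V-ATPase). TFEB, MITF, TFE3 and TFEC form the MiT/TFE family of transcription factors, which bind DNA at E-boxes, and many lysosome genes carry a longer form of that site called the CLEAR element. MITF is required for mast cells to develop, and the secretory granules of both basophils and mast cells are related to lysosomes.

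The recognition sites of the family were looked for in RefSeq promoter windows of build GRCm38.p6, from 250 bases before to 50 bases after each start site, to show which members carry them. Windows existed for 36 of the 42 members; Ctsh, Asah1, Atp6v0d2, Atp6v1h, Npc1 and Ctsb were not matched. Searched on both strands, the E-box CACGTG lay in the windows of 16 of 36 members (44.4%), against 8.09% of all 27025 genes with a window and 9.81% of the 14931 other genes on the array. The members' windows were no richer in G and C (median 56.5%) than those of the other array genes (58%). The CLEAR core TCACGTGA, which contains the E-box and is counted in both, lay in 8 members (22.2%) and in 1.12% of all genes. The M-box TCATGTG, a site preferred by MITF, lay in 6 members (16.7%) and in 4.31% of all genes. The C/EBP palindrome TTGCGCAA lay in 1 member, Ids, and in 0.207% of all genes. The members were listed as a pathway under these factors, so a high share of the family's sites may follow from how they were chosen. These shares were not tested. A match is a description of these letters and not a tested binding site.

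Stretches of 8 promoters are shown because the members' values below return to these genes. They read 5′ to 3′ on the gene's strand and lie upstream of the start site, with E-box, CLEAR and M-box letters in capitals, and in Ids the C/EBP palindrome. Gla (chrX:134601185-134601245, minus strand) held a pair of CLEAR cores around an M-box. Lamp1 (chr8:13159091-13159160, plus strand) held 4 E-boxes within 70 bases of its start. Mcoln1 (chr8:3500439-3500489, plus strand) and Cln3 (chr7:126583341-126583394, minus strand) each held an E-box and a CLEAR core. Ctsd (chr7:142387908-142387937, minus strand) is shown at its CLEAR core, and Sgsh (chr11:119355521-119355550, minus strand) and Ctsl (chr13:64370741-64370770, minus strand) at an E-box. Ids is shown at chrX:70365086-70365125, minus strand.
Gla: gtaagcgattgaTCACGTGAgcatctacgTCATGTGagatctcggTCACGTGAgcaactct
Lamp1: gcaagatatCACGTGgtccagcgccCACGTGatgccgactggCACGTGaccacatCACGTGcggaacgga
Mcoln1: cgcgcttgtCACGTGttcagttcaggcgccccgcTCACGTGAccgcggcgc
Cln3: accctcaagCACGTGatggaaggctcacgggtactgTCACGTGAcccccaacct
Ctsd: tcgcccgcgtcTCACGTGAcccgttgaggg
Sgsh: ggcctgccgtgCACGTGaccgtggggagcg
Ctsl: gcggcgttagaagcCACGTGctgatctaaa
Ids: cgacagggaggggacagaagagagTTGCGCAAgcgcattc

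Values are normalized probe intensities, which were treated as linear and as comparable between arrays for the same probe but not between probes. An intensity of at most 30 on every array of a group is called background here, and fold changes are differences of log2(intensity + 16), given ± SE from a limma fit with 3 arrays per group. The shares given for all probes above background use another rule, a mean of at least 30 in a group compared. A difference is called where its p-value, adjusted over all 26423 probes, lay under 0.05. Most named genes were picked for large called changes, so statements below that their arrays did not overlap add no support. The share of all probes without overlap was not counted. Over the probes of higher mean intensity, arrays of a group resembled each other (r of 0.983 to 0.992) more than any array of another group (at most 0.969). The check of the targeted gene followed the labels: Cebpa was 69.1, 69.4 and 57.8 in treated floxed basophils, 1055, 935 and 959 in untreated floxed basophils and 2280.2, 2602 and 2226 in untreated wild type basophils. It was 2973, 2822 and 2539 in treated wild type basophils, 2232, 2393 and 2105 in fresh basophils and 56.8, 63.8 and 45.7 in mast cells. The untreated floxed cells already had less of it than the untreated wild type cells (log2 fold change -1.25 ± 0.11, limma adjusted p = 3.84e-07). Of the 8 basophil markers, all were above background in the basophil groups, and 6 of the 7 mast cell markers measured were above it in mast cells, the exception being Tpsab1. Detection alone separated the cell types only in part. Of the basophil markers only Il4 was at background in mast cells, and of the mast cell markers only Tpsab1 and Mrgprb2 were at background in cultured basophils. In fresh basophils Mcpt2 and Tph1 were at background as well. The basophil marker sum was 156779 to 159889 in fresh basophils and 66573 to 70587 in mast cells. The mast cell marker sum was 489 to 535 and 102588 to 109197 in the same order.

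The family's own transcripts differed most between the groups in Mitf and Tfec. Mitf was 5499, 4709 and 4748 in mast cells and 150.4, 152 and 154 in fresh basophils. Among cultured basophils it was 569.8, 600.2 and 592 in untreated and 458, 423 and 405 in treated wild type cells, 395, 396 and 415 in untreated floxed cells and 1804, 1785 and 1619.6 in treated floxed cells. The order was thus mast cells, treated floxed, untreated wild type, the neighbouring treated wild type and untreated floxed groups, and fresh basophils; the ranges of neighbours in this order overlapped only between treated wild type and untreated floxed cells. Treated floxed cells had more Mitf than treated wild type cells (log2 fold change 1.98 ± 0.08, adjusted p = 1.29e-11) and less than mast cells (-1.51 ± 0.08, adjusted p = 1.33e-10).

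Tfec was lowest in mast cells. It was 37.5, 48.4 and 40.3 in mast cells, 89.6, 95.3 and 82.2 in fresh basophils, 429.9, 439.9 and 437 in untreated and 658, 688 and 644 in treated wild type cells, and 319.6, 326 and 293 and 134, 147 and 141 in untreated and treated floxed cells. No pair of groups overlapped, and treated floxed cells had less Tfec than treated wild type cells (log2 fold change -2.12 ± 0.08, adjusted p = 8.60e-12). Tfe3 was 207, 221 and 252 in mast cells, 473, 432 and 462 in untreated wild type, 657, 708 and 565 in treated wild type and 331, 316 and 366 in treated floxed cells, and lay between 235 and 259 in fresh basophils and between 336 and 447 in untreated floxed cells. Tfe3 was lower in treated floxed than in treated wild type cells (log2 fold change -0.89 ± 0.11, adjusted p = 9.40e-06). The Tfeb probe was at or below an intensity of 30 on 16 of the 18 arrays, with a highest value of 44.7, and passed the test in none of the 9 comparisons, so these arrays give no order of the groups for Tfeb. Transcript level does not measure the activity of these factors, which is set largely by where in the cell the protein lies.

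**Figure D1:**
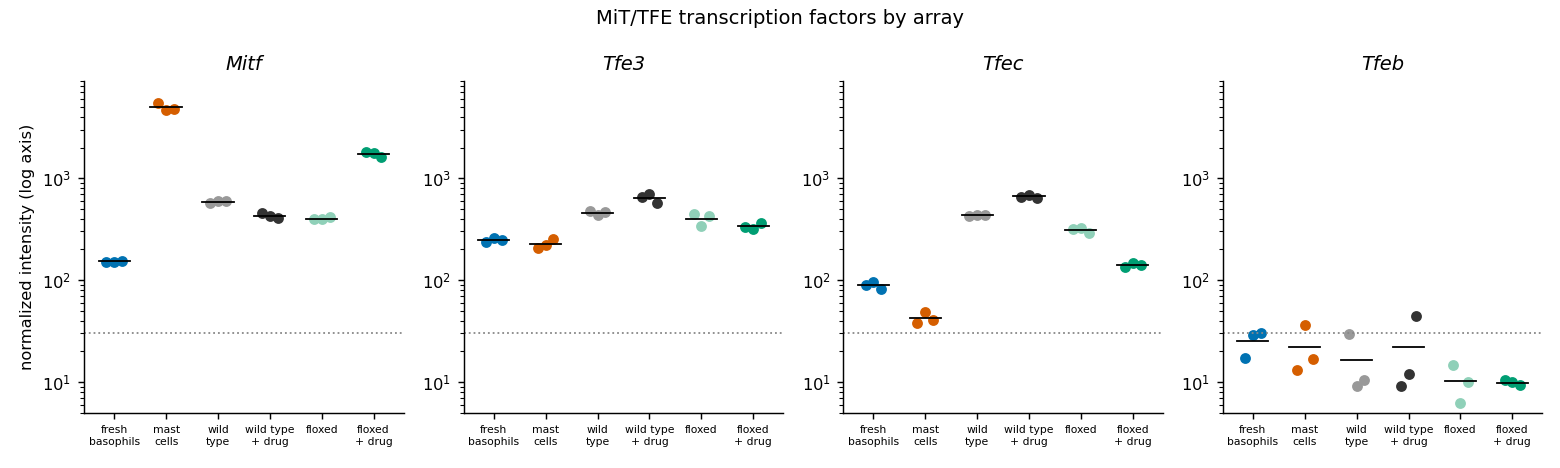
Normalized intensity (log axis, the same in each panel) of the 4 MiT/TFE family genes on the 18 arrays, with 1 point per array, a bar at the group mean and a dotted line at the background limit of 30. Mitf is highest in mast cells and second in treated floxed basophils, Tfec is lowest in mast cells, and Tfeb lies near or under the line in every group.

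Across the 6 groups the members did not move as a block. The lowest group mean was that of fresh basophils in 19 members and that of mast cells in another 19, and the highest was that of treated wild type basophils in 16. Untreated wild type basophils were highest in 8, untreated floxed in 6, mast cells in 5, fresh basophils in 4 and treated floxed in 2. These counts cover 41 members and leave out the saturated Cd63. This order depends in part on how arrays are scaled: without normalization between arrays, fresh basophils were lowest in 6 members and mast cells in 28 and treated wild type basophils highest in 7; with scaling on bright probes fresh basophils were lowest in 21 and mast cells in 16; with median scaling untreated floxed basophils were highest in 13. A total of 40 members were at background in no group, although some arrays of a group could lie under the limit, as for Atp6v0d2 in mast cells. Arsb was at background in mast cells and Ids in fresh basophils. Cd63, a granule membrane protein, was saturated on 14 of the 18 arrays, including every array of the fresh basophils, the mast cells and both floxed groups, so its probe gives no fold, although it stays in the counts of 42, as not called in all 9 comparisons of the quantile-normalized values.

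**Figure D2:**
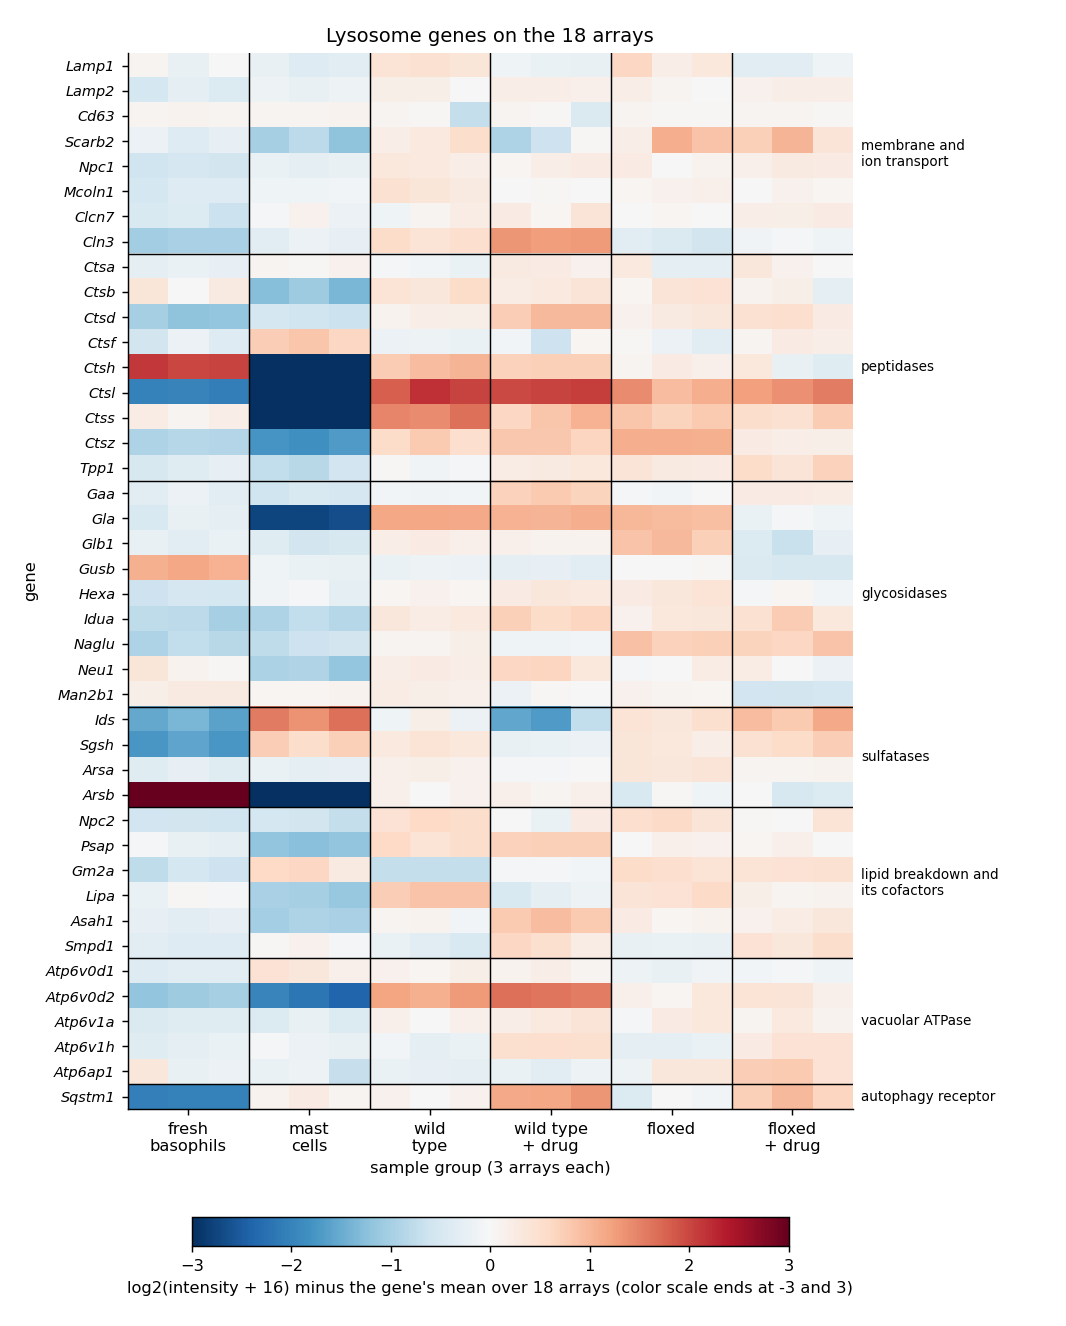
Each of the 42 lysosome genes (lines) on the 18 arrays (columns, 3 per group), as log2(intensity + 16) minus the gene's mean over all arrays, with the color scale ending at -3 and 3. Mast cells are darkest blue for Ctsh, Ctsl, Ctss, Gla and Arsb, fresh basophils are blue in most lines but red for Arsb, Ctsh and Gusb, and Cd63 is saturated on most arrays.

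Fresh basophils and mast cells differed widely in single lysosome genes, in both directions. Of the 42 members, 16 were higher in fresh basophils and 14 lower, 71.4% in all, against 40.6% of all probes and 64.2% of probes above background in a group compared. Of the probes above background, 29.0% were higher and 35.2% lower, so the members' share lay close to that of other bright probes. A threshold of 2-fold left 15 members and 12.9% of all probes. The median log2 fold change of the members was 0.01 and that of all probes -0.04. Peptidases leaned to the basophils (6 of 9 higher, 2 lower), as did glycosidases (4 of 9 higher, 1 lower), whereas membrane proteins leaned to the mast cells (1 of 8 higher in basophils, 5 lower). The direction of the split moved with scaling: without normalization 27 members were higher and 6 lower, the median of all probes rose to 0.16, and Mcoln1 turned to higher in basophils by the test (-0.31 became 0.23), while Lamp2, Npc1, Hexa and Smpd1, lower in basophils by the test, came to lie above 0 without a call.

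The widest difference was in a sulfatase. Arsb, which removes sulfate from dermatan and chondroitin sulfate, was 4577, 3247 and 3524 in fresh basophils and 6.94, 6.50 and 9.61 in mast cells, where it was not above background, so it was at least 125-fold higher in the basophils (adjusted p = 1.41e-16). Ids, which removes sulfate from heparan and dermatan sulfate, was 14.2, 17.6 and 12.5 in fresh basophils and 238, 205 and 258 in mast cells, at least 7.76-fold lower in the basophils (adjusted p = 6.11e-10). Sgsh, the heparan N-sulfatase, was 311, 348 and 311 in fresh basophils and 1818, 1564 and 1773 in mast cells (log2 fold change -2.35 ± 0.09, adjusted p = 7.84e-13). These 3 enzymes thus had separate ranges in the cell types but opposite directions. Bound folds set the background limit of 30 in place of the dim group's values.

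Among the peptidases, Ctsh, an aminopeptidase, was 3334, 3058 and 3124 in fresh basophils and 33.1, 41.5 and 53.4 in mast cells (log2 fold change 5.78 ± 0.15, adjusted p = 2.78e-15). Ctss, the cysteine protease that trims the class II invariant chain, was 1846, 1649.6 and 1802 and 103, 86.4 and 92.0 in the same order (log2 fold change 4.02 ± 0.12, adjusted p = 1.57e-14). Ctsl, a cysteine endopeptidase, was 954, 974 and 929.6 and 168, 148 and 154 (log2 fold change 2.49 ± 0.12, adjusted p = 2.47e-11). All 3 were separated without overlap, and Ctsb, a related protease, was higher in fresh basophils as well, at 10840.2, 8464 and 10203 against 3474, 4049 and 3261 (log2 fold change 1.45 ± 0.14, adjusted p = 1.76e-07). Ctsf ran the other way, at 79.1, 107 and 89.6 in fresh basophils and 215, 232 and 198 in mast cells (log2 fold change -1.11 ± 0.15, adjusted p = 8.35e-06). The aspartic protease Ctsd was 4744, 4130.1 and 4262 in fresh basophils and 6617, 6295 and 6061 in mast cells (log2 fold change -0.53 ± 0.10, adjusted p = 0.000218), lower in basophils on all 3 arrays. Without normalization the Ctsd call was lost (-0.12, adjusted p = 0.492).

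Of the other members, Gla, which cleaves terminal alpha-galactose from glycolipids, was 3383, 3989 and 3809 in fresh basophils and 671, 675 and 714 in mast cells (log2 fold change 2.41 ± 0.08, adjusted p = 6.28e-14). Sqstm1, the autophagy receptor p62, was 660.4, 678 and 676 in fresh basophils and 3036, 3319 and 2963 in mast cells (log2 fold change -2.18 ± 0.11, adjusted p = 3.05e-11). Gm2a, the activator that presents ganglioside to hexosaminidase, was 3233, 3784 and 3533 and 8306, 8355 and 6617 (log2 fold change -1.13 ± 0.09, adjusted p = 1.88e-08). Each of these 3 genes was separated without overlap. Cln3, the lysosomal membrane protein mutated in juvenile Batten disease, was 243, 254 and 255 in fresh basophils and 415, 455 and 432 in mast cells (log2 fold change -0.76 ± 0.08, adjusted p = 4.12e-07). Lamp1, an abundant glycoprotein of the lysosomal membrane, was 18175, 14787 and 17253 and 14721, 13205 and 13752 and was not called (log2 fold change 0.26 ± 0.11, adjusted p = 0.0589). It was called under 6 of the alternatives, at 0.62 without normalization (adjusted p = 8.25e-05), at 0.36 without fresh replicate 2 (adjusted p = 0.0211) and with adjusted p from 0.0291 to 0.0475 in the other 4. Atp6v0d2, a V-ATPase subunit restricted to few cell types, was 67.3, 73.8 and 77.9 in fresh basophils and 32.2, 25.8 and 20.3 in mast cells, of which 1 array was above the background limit (log2 fold change 1.09 ± 0.11, adjusted p = 2.81e-07).

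Markers of other marrow cells moved with this comparison. The summed level of 15 macrophage and monocyte markers was 49715 to 50936 in fresh basophils and 3614 to 4119.5 in mast cells, where C1qa, C1qb, Mrc1, Csf1r, Cd5l and Cd14 were at background. The sum of 11 neutrophil markers was 98469 to 101864 in fresh basophils and 682 to 719.9 in mast cells, and that of 6 eosinophil markers 48808 to 50169 and 381 to 429.6. The neutrophil marker S100a8 was at background in every group of the series. In mast cells Ngp, Retnlg, Cxcr2 and the eosinophil marker Siglecf were at background too. Their part in the differences of the members was not tested. In such bulk samples, fewer cells of a type and less RNA per cell cannot be told apart. Intensities are not comparable between probes, so a few bright probes can set a sum. Nor do the sums show which cells the RNA came from.

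Untreated wild type basophils in culture differed from both other preparations in most lysosome genes. Against mast cells, 28 members were higher and 5 lower, 78.6% of the set, with 39.2% of all probes called and 63.3% of those above background. Probes above background were higher in 27.2% and lower in 36.1%, against 28 and 5 of 42 members. Differences of 2-fold or more were called in 17 members, with 12.7% of all probes. The median log2 fold change of the members was 0.59, with -0.04 over all probes. Glycosidases were higher in 7 of 9 and lower in none, membrane proteins in 6 of 8 and lower in none, and peptidases in 7 of 9 with 1 lower. The members' median lay between 0.45 and 0.86 under the alternatives run.

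Cathepsins led this comparison. Ctsl was 13579, 17987 and 15992 in untreated wild type basophils, against the mast cell values already given (log2 fold change 6.51 ± 0.12, a 91.4-fold difference on this scale, adjusted p = 9.66e-17). Ctss was 4366, 4220.4 and 4979 in these cells (log2 fold change 5.37 ± 0.12, adjusted p = 4.70e-16) and Ctsh 1295, 1447 and 1535 (4.63 ± 0.15, adjusted p = 6.30e-14). Each of the 3 lay above every mast cell array. Atp6v0d2 was 414, 377 and 438 (log2 fold change 3.34 ± 0.11, adjusted p = 9.86e-14), Ctsd 10302, 10913 and 10676 (0.75 ± 0.10, adjusted p = 5.37e-06) and Lamp1 22848, 23528 and 21976 (0.71 ± 0.11, adjusted p = 3.01e-05). These 3 were also separated from the mast cells without overlap, as was Gla, at 10427, 10340.1 and 10133 (log2 fold change 3.88 ± 0.08).

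The 5 members that were lower in cultured wild type basophils than in mast cells were Ids, Gm2a, Ctsf, Smpd1 and Sgsh. Ids was 63.9, 81.8 and 60.8 in the basophils (log2 fold change -1.56 ± 0.19, adjusted p = 2.83e-06). Gm2a was 3322, 3334 and 3327 (-1.21 ± 0.09, adjusted p = 8.07e-09) and Ctsf 108, 110.0 and 106 (-0.90 ± 0.15, adjusted p = 8.08e-05). All 3 lay below every mast cell array. Smpd1, acid sphingomyelinase, and Sgsh differed less, by -0.37 and -0.32. Mitf was -3.05 and Tfec 2.96 on the same scale. The macrophage and monocyte marker sum was 16264 to 17193 in untreated wild type basophils, above that of mast cells and below that of fresh basophils, and its part was not tested.

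**Figure D3:**
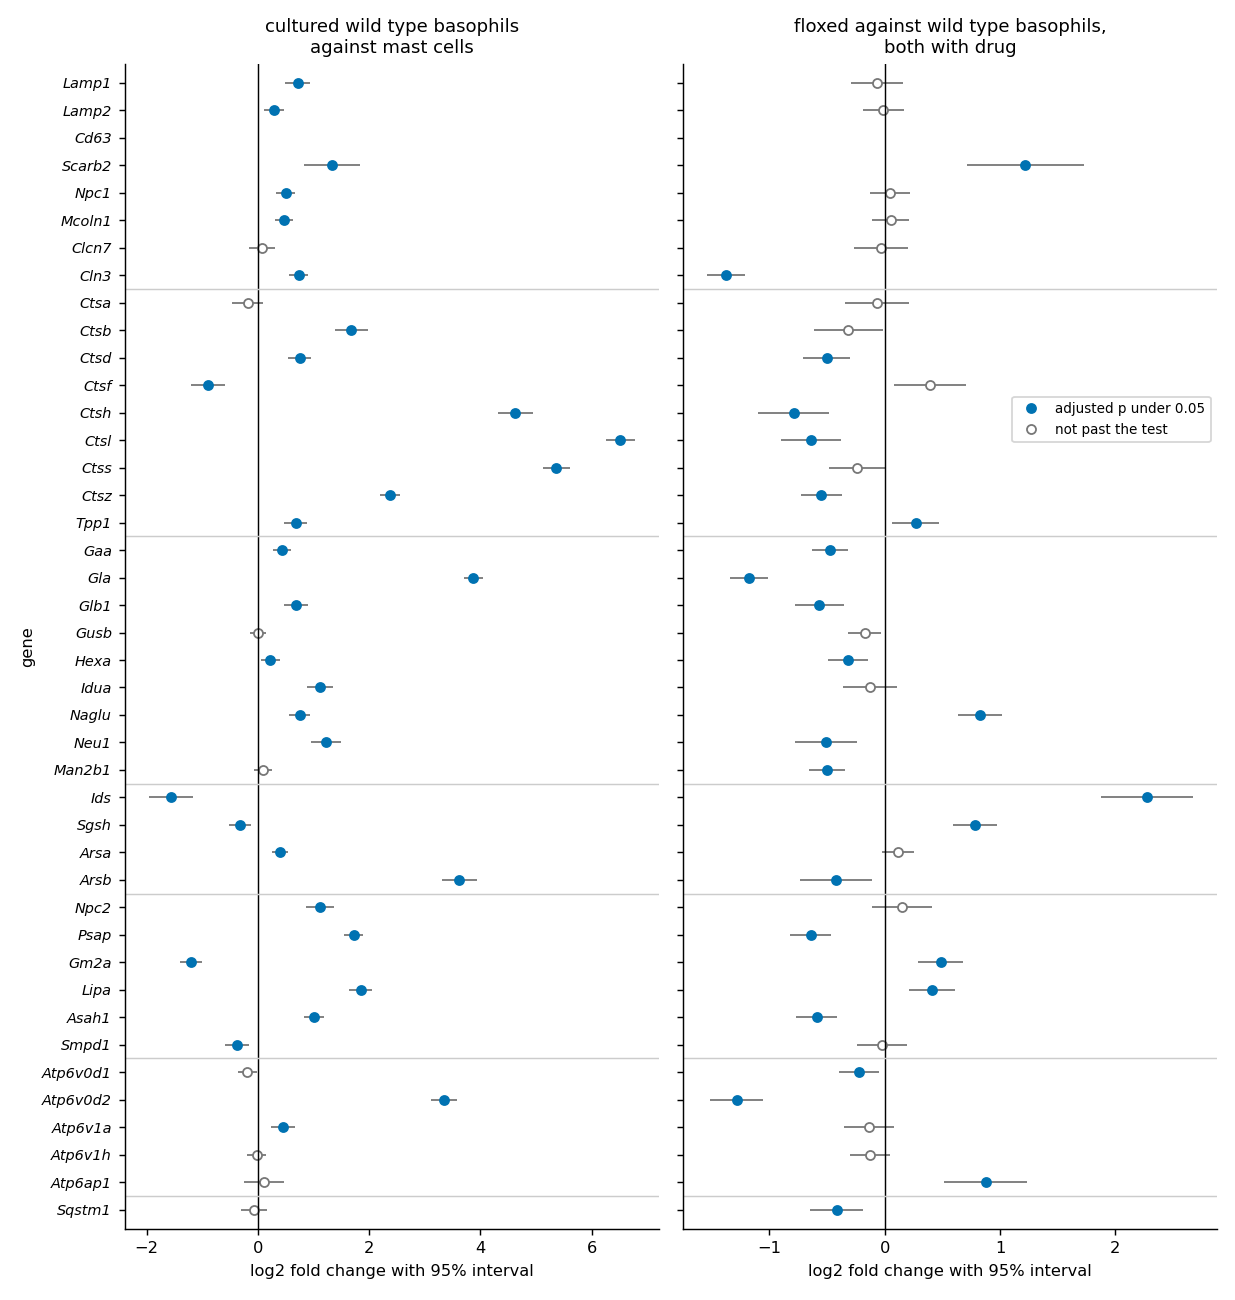
Log2 fold change with its 95% interval for each lysosome gene, for untreated wild type cultured basophils against mast cells (left) and for treated floxed against treated wild type basophils (right), with 3 arrays per group and lines between the functional classes in the order of the heat map. Filled points passed the test; most filled points lie right of 0 on the left and left of 0 on the right, the horizontal scales differ, and Cd63 has no value because its probe was saturated.

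Fresh basophils, set against the same cultured wild type cells, had lower values in 27 members and higher values in 3, 71.4% of the set, with 34.9% of all probes called and 58.7% of those above background. Among probes above background 29.5% were higher and 29.3% lower. At least 2-fold differences were called in 15 members and in 9.78% of all probes. The members' median log2 fold change was -0.50 and that of all probes -0.01, and it lay between -0.63 and -0.36 under the alternatives. Membrane proteins were lower in 6 of 8, peptidases and glycosidases in 5 of 9 each, lipid enzymes and their cofactors in 4 of 6 and V-ATPase subunits in 3 of 5. This comparison shares the cultured and the fresh arrays with those above, and it may also differ in genotype. The cultured cells carried RosaYFP/creER, and no genotype was given for the fresh basophils or the mast cells.

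Ctsl, at the values given for the fresh and the cultured cells, had the widest gap (log2 fold change -4.02 ± 0.12, adjusted p = 1.21e-13), although its dimmer probe, above background in both groups, was not called and had a value above 0 (0.39 ± 0.19). Atp6v0d2 (-2.26 ± 0.11, adjusted p = 3.41e-11) and Sqstm1 (-2.12 ± 0.11, adjusted p = 8.46e-11) followed, Sqstm1 at 3082, 2761 and 3073 in the cultured cells. Ctsd was lower in fresh cells, with a log2 fold change of -1.28 ± 0.10 (adjusted p = 9.69e-09) and Lamp1 too, at -0.45 ± 0.11 (adjusted p = 0.00278). None of these 5 genes had overlapping groups. The Lamp1 call was lost with median scaling.

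The 3 members higher in fresh basophils were Arsb, Gusb and Ctsh. Arsb was 288, 258 and 279.9 in cultured wild type cells (log2 fold change 3.69 ± 0.15, adjusted p = 3.32e-12). Gusb, beta-glucuronidase, was 2174, 2316 and 2124 in fresh and 894, 913 and 909 in cultured cells (log2 fold change 1.27 ± 0.07, adjusted p = 1.16e-10). Ctsh had a log2 fold change of 1.15 ± 0.15 (adjusted p = 6.18e-06). In all 3 the fresh arrays lay above every cultured array, and the neutrophil marker sum, 29483 to 32225 in the cultured cells against 98469 to 101864 in the fresh ones, ran the same way, as did the eosinophil sum (4762 to 4941 in the cultured cells). The part of these cells was not tested.

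**Figure D4:**
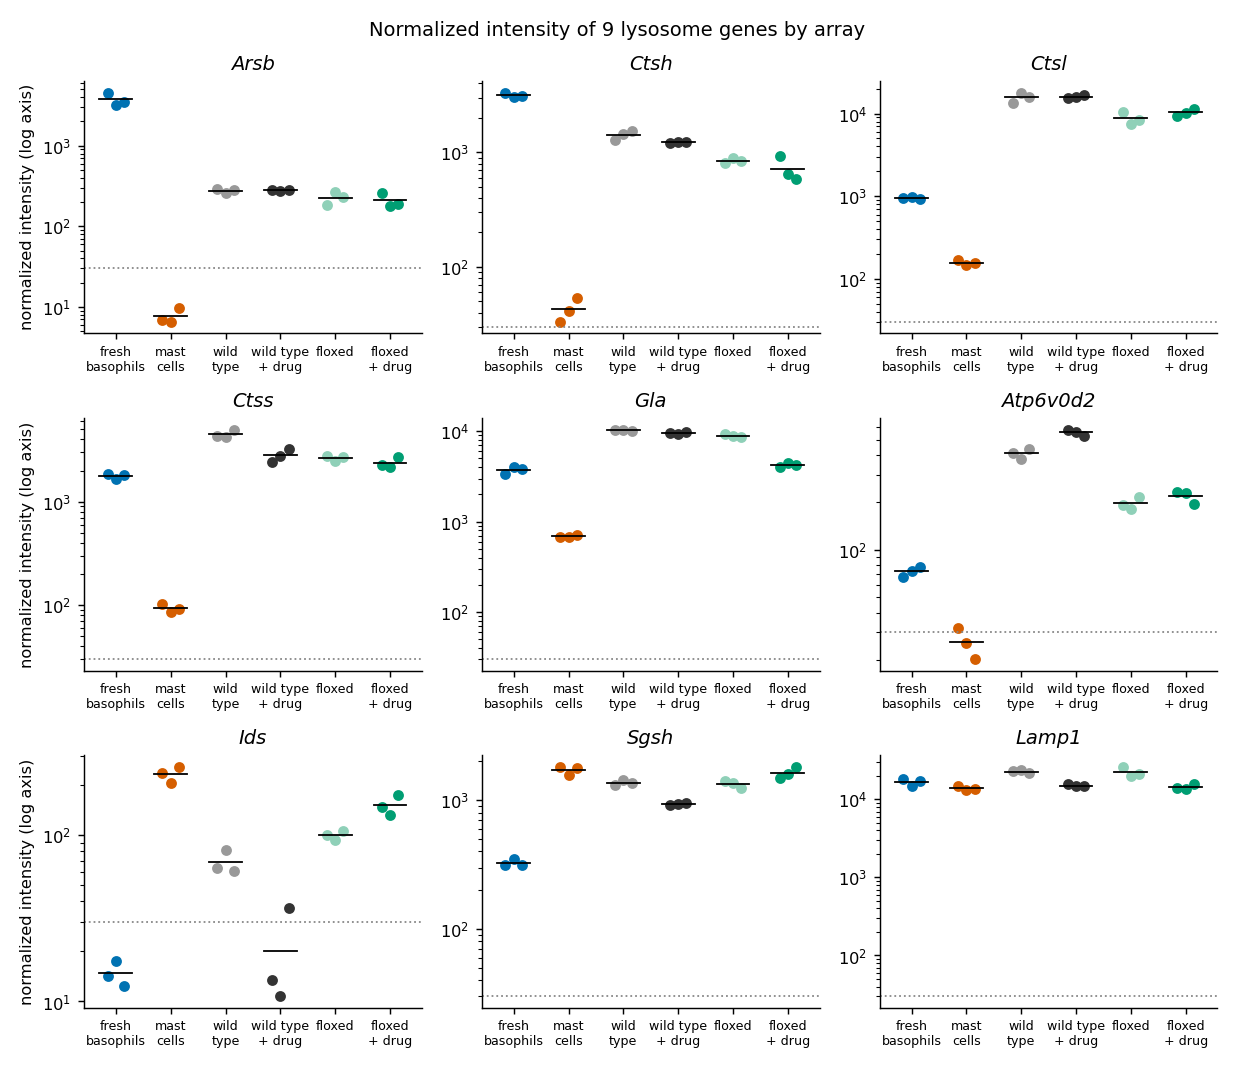
Normalized intensity (log axis, with its own range in each panel) of 9 lysosome genes on the 18 arrays, with 1 point per array, a bar at the group mean and a dotted line at the background limit of 30. Ctsl, Ctss, Gla and Atp6v0d2 are lowest in mast cells and highest in wild type cultured basophils, Arsb and Ctsh are highest in fresh basophils, and the mean of Ids and of Sgsh is lowest in fresh basophils.

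Loss of Cebpa was examined in cultured basophils that had all received 4-hydroxytamoxifen. In treated floxed cells 8 members were higher and 17 lower than in treated wild type cells, 59.5% of the set, with 30.7% of all probes called and 52.3% of those above background. Of the probes above background, 27.1% were higher and 25.2% lower. A threshold of 2-fold left 5 members and 5.40% of all probes. The median log2 fold change was -0.13, with a value within 0.01 of 0 over all probes. Glycosidases were lower in 6 of 9 and higher in 1, and peptidases lower in 4 of 9 and higher in 1. Of the sulfatases 2 of 4 were higher and 1 lower, whereas membrane proteins were called in 2 of 8. Without normalization the split was 9 higher and 12 lower.

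The highest difference was again in a sulfatase. Ids was 148, 133 and 175 in treated floxed cells and 13.6, 10.8 and 36.3 in treated wild type cells, where only 1 of 3 arrays was above the background limit (log2 fold change 2.27 ± 0.19, adjusted p = 7.58e-08). Sgsh was 1487, 1591 and 1803 and 921, 939 and 948 in the same order (log2 fold change 0.78 ± 0.09, adjusted p = 3.70e-06). Naglu, a glycosidase of heparan sulfate breakdown, was 6373, 6157 and 7267 and 3647, 3674 and 3777 (0.83 ± 0.09, adjusted p = 1.98e-06). Each of the 3 was higher on every treated floxed array than on any treated wild type array.

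Scarb2, the receptor that carries beta-glucocerebrosidase to the lysosome, was 358, 441 and 282 in treated floxed and 103, 130.3 and 217 in treated wild type cells (log2 fold change 1.22 ± 0.24, adjusted p = 0.000737). Atp6ap1, an accessory subunit of the V-ATPase, was 2923, 3033 and 2384 and 1523, 1411 and 1569 (0.88 ± 0.17, adjusted p = 0.00068). Gm2a was 7253, 7357 and 7512 and 5356, 5233 and 5167 (0.49 ± 0.09, adjusted p = 0.000514). None of the 3 overlapped between the groups.

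Among the members that were lower, Cln3 was 476, 509 and 472 in treated floxed and 1310.2, 1262 and 1275 in treated wild type cells (log2 fold change -1.37 ± 0.08, adjusted p = 7.41e-10). Atp6v0d2 was 233, 229 and 195 and 578, 556 and 530.1 (-1.28 ± 0.11, adjusted p = 1.00e-07). Gla was 4040.4, 4451 and 4229 and 9563, 9421 and 9869.6 (-1.18 ± 0.08, adjusted p = 4.02e-09). These genes were the 3 that fell at least 2-fold, with no overlap of arrays. The promoter of Cln3 holds an E-box and a CLEAR core and that of Gla a pair of CLEAR cores, as printed above; Mcoln1, a lysosomal calcium channel whose promoter also holds an E-box and a CLEAR core, was not called (0.05 ± 0.08, 95% interval -0.11 to 0.21).

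Smaller differences in the same direction were seen in Ctsh, at 936, 644 and 586 against 1216, 1243 and 1243 (log2 fold change -0.79 ± 0.15, adjusted p = 0.000436), and in Ctsl, at 9322, 10256 and 11508 against 15467, 15992 and 16726 (-0.64 ± 0.12, adjusted p = 0.000671). Psap, the precursor of the saposins that help sphingolipid enzymes, was 7216, 7686 and 6982 and 11252, 11462 and 11401 (-0.64 ± 0.08, adjusted p = 1.27e-05). Ctsd was 12973, 13399 and 11336 and 15859.7, 18809.7 and 18809.7 (-0.50 ± 0.10, adjusted p = 0.000575). The groups did not overlap in any of these 4 genes. Lamp1, with 4 E-boxes in its promoter, was 13824, 13634 and 15637 and 15559, 14919 and 14662 and was not called (log2 fold change -0.07 ± 0.11, adjusted p = 0.7, 95% interval -0.30 to 0.16). Of the 16 members with an E-box in the window 2 were higher and 7 lower, and of the 20 without it 6 were higher and 7 lower. Of all probes above background 52.3% were called in this comparison. In cultured wild type basophils against mast cells, 11 members with an E-box were higher and 2 lower, and 12 and 3 of those without it. Other genes with an E-box were not counted, and the part of the site was not tested.

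Some of these differences were already present without the drug, as was part of the difference in Cebpa. In untreated floxed against untreated wild type cells 7 members were higher and 9 lower, 38.1% of the set, with 15.8% of all probes called and 27.9% of those above background, and a median of -0.02. Probes above background were higher in 15.2% and lower in 12.7%. Differences of 2-fold or more were called in 1 member, with 1.79% of all probes. The split moved with scaling, to 8 higher and 5 lower with median scaling and to 5 and 10 without normalization. The treated and untreated comparisons share no arrays: 9 members were called in both in the same direction, 36% of the treated list and 56.3% of the untreated one, and 4 in opposite directions. This overlap was not counted over all probes, so it cannot be read as a trait of the members. The 9 were Tpp1, Naglu and Gm2a, higher, and Cln3, Ctsh, Ctsl, Psap, Atp6v0d1 and Atp6v0d2, lower. Those in opposite directions were Ctsz, Glb1 and Hexa, higher untreated and lower treated, and Lipa, lower untreated and higher treated.

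Gm2a had the widest gap without drug, 7958, 7803 and 7236 in floxed and 3322, 3334 and 3327 in wild type cells (log2 fold change 1.20 ± 0.09, adjusted p = 9.66e-08). Naglu was 7442, 6489.5 and 6617 and 4242, 4265 and 4527 (0.65 ± 0.09, adjusted p = 7.02e-05), and Glb1, beta-galactosidase, 15045, 16115 and 13447 and 9421, 9854 and 9184 (0.64 ± 0.10, adjusted p = 0.000231). All 3 were higher on every floxed array. On the lower side were Atp6v0d2, at 194, 181 and 217 in floxed cells (-1.0 ± 0.11, adjusted p = 5.42e-06), Cln3, at 412, 376 and 349.8 against 769, 694 and 736 (-0.92 ± 0.08, adjusted p = 3.22e-07), and Ctsl, at 10500.2, 7512 and 8355 (-0.85 ± 0.12, adjusted p = 0.000102). Each of these lay below every untreated wild type array. Ctsd (0.08 ± 0.10, adjusted p = 0.67) and Lamp1 (-0.03 ± 0.11, adjusted p = 0.893) were not called.

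Marker sums moved with these comparisons too. The mast cell marker sum was 54544 to 61776 in treated floxed cells and 18879 to 20322 in treated wild type cells, with Tpsab1 and Mrgprb2 at background in both, and 9952 to 10652 and 13820.4 to 15017 in their untreated counterparts. The macrophage and monocyte sum was 8932 to 9174 in treated floxed, 14207 to 15556 in treated wild type and 11322 to 12870.0 in untreated floxed cells, with none of the 15 markers at background. The neutrophil sum was 3498 to 4019, 17585 to 18056 and 10488 to 11491 in the same groups. Eosinophil markers ran the other way, at 10865 to 11187, 3816 to 4067 and 7538 to 8561. The part of these cells in the members' differences was not tested.

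4-Hydroxytamoxifen switches on the creER fusion, which the wild type cells carry too. In wild type cells 11 members were higher with drug and 9 lower, 47.6% of the set, with 21.3% of all probes called and 37.6% of those above background, and a median of 0.03 against 0.01 over all probes. Among probes above background 19.5% were higher and 18.1% lower. At least 2-fold differences were called in 3 members and in 1.21% of all probes. Without normalization the split was 8 higher and 18 lower. Sqstm1 rose most, from 3082, 2761 and 3073 untreated to 6132, 6247 and 6996 treated (log2 fold change 1.11 ± 0.11, adjusted p = 2.62e-06). Gaa, acid alpha-glucosidase, went from 804, 803 and 807 to 1398, 1500.3 and 1366 (0.81 ± 0.07, adjusted p = 1.47e-06). Cln3 (0.80 ± 0.08, adjusted p = 2.60e-06), Ctsd (0.74 ± 0.10, adjusted p = 3.43e-05) and Atp6v0d2 (0.42 ± 0.11, adjusted p = 0.00951) were also higher. The Atp6v0d2 call was lost without untreated wild type replicate 2 (0.42 became 0.37, adjusted p = 0.0512) and without normalization. The other named genes of this group were separated without overlap.

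Members lower with the drug in wild type cells included Ids (-1.29 ± 0.19, adjusted p = 0.000112), which went from above background on every array to above it on 1 of 3. Lipa, acid lipase, went from 2779, 3016 and 3033 to 1199, 1389.6 and 1493 (-1.11 ± 0.10, adjusted p = 7.20e-07). Lamp1 went from 22848, 23528 and 21976 to 15559, 14919 and 14662 (-0.60 ± 0.11, adjusted p = 0.000616). In all 3 the treated arrays lay below the untreated ones. Scarb2 (-0.85 ± 0.24, adjusted p = 0.0167) lost its call with median scaling and without any 1 of treated replicates 1 and 2 and untreated replicate 3, with adjusted p of 0.0942, 0.0606 and 0.0696. Marker sums of other cells moved with the drug here as well: the neutrophil sum was 29483 to 32225 untreated and 17585 to 18056 treated, the mast cell sum 13820.4 to 15017 and 18879 to 20322, and the macrophage and monocyte sum 16264 to 17193 and 14207 to 15556. Their part in the differences of the members was not tested.

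In floxed cells the drug comparison, which there includes the loss of Cebpa, had 6 members higher and 9 lower, 35.7% of the set, with 19.6% of all probes called and 34.0% of those above background, and a median of 0.01. Of the probes above background, 17.3% were higher and 16.8% lower. A threshold of 2-fold left 2 members and 2.52% of all probes. With median scaling the split was 3 higher and 11 lower. Sqstm1 went from 2107, 2780.1 and 2634 to 4645, 5504 and 4392 (0.95 ± 0.11, adjusted p = 7.20e-06), Smpd1 from 113, 114 and 112 to 185, 173 and 199 (0.64 ± 0.10, adjusted p = 0.000164) and Atp6v1h from 292, 299 and 311 to 432, 492 and 491 (0.62 ± 0.08, adjusted p = 3.05e-05). These rises were seen on every array. Glb1 went from 15045, 16115 and 13447 to 6164, 5216 and 6911 (-1.29 ± 0.10, adjusted p = 8.59e-08), Gla from 9283, 8867 and 8709 to 4040.4, 4451 and 4229 (-1.08 ± 0.08, adjusted p = 2.76e-08) and Ctsz, a carboxypeptidase, from 5889, 5849 and 5774 to 3258, 3161 and 3143 (-0.87 ± 0.08, adjusted p = 7.65e-07). These falls too had no overlap. Lamp1 fell (-0.63 ± 0.11, adjusted p = 0.000339), whereas Ctsd (0.15 ± 0.10, adjusted p = 0.324) and Atp6v0d2 (0.14 ± 0.11, adjusted p = 0.451) were not called. The drug comparisons in the genotypes share no arrays: 8 members were called in both in the same direction, 40% of the wild type list and 53.3% of the floxed one, and 1, Sgsh, in opposite directions. Here too the overlap over all probes was not counted, and no trait of the members is read from it. The 8 were Cln3, Gaa, Smpd1, Atp6v1h and Sqstm1, higher with drug, and Lamp1, Man2b1 and Lipa, lower.

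The test of the difference between these drug effects called 15 members, 4 higher and 11 lower in the floxed cells, 35.7% of the set, with 12.6% of all probes called and 21.7% of those above background. Probes above background were higher in 10.6% and lower in 11.1%. Differences of 2-fold or more were called in 3 members, with 2.66% of all probes. The median difference was -0.10, with -0.01 over all probes. Glycosidases made up 6 of the 11 (Gla, Glb1, Hexa, Gaa, Man2b1 and Gusb). Ids was highest, at 1.81 ± 0.27 (adjusted p = 0.000205), followed by Sgsh at 0.82 ± 0.13 (adjusted p = 0.000347) and Lipa at 0.76 ± 0.14 (adjusted p = 0.00118). Glb1 was lowest, at -1.21 ± 0.14 (adjusted p = 2.30e-05), followed by Ctsz at -1.01 ± 0.12 (adjusted p = 1.81e-05) and Gla at -0.98 ± 0.11 (adjusted p = 1.28e-05). Ctsd was called at -0.59 ± 0.14 (adjusted p = 0.00806), while Atp6v0d2 (-0.28 ± 0.15, adjusted p = 0.286) and Lamp1 (-0.03 ± 0.15, 95% interval -0.35 to 0.29) were not. The split was 1 higher and 9 lower with median scaling, where the median of all probes was -0.13, and 6 and 5 without normalization, where it was 0.12. The Sgsh and Lipa calls were lost with median scaling and the Ctsd call without normalization. The treated comparison enters this test with the same arrays.

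**Figure D5:**
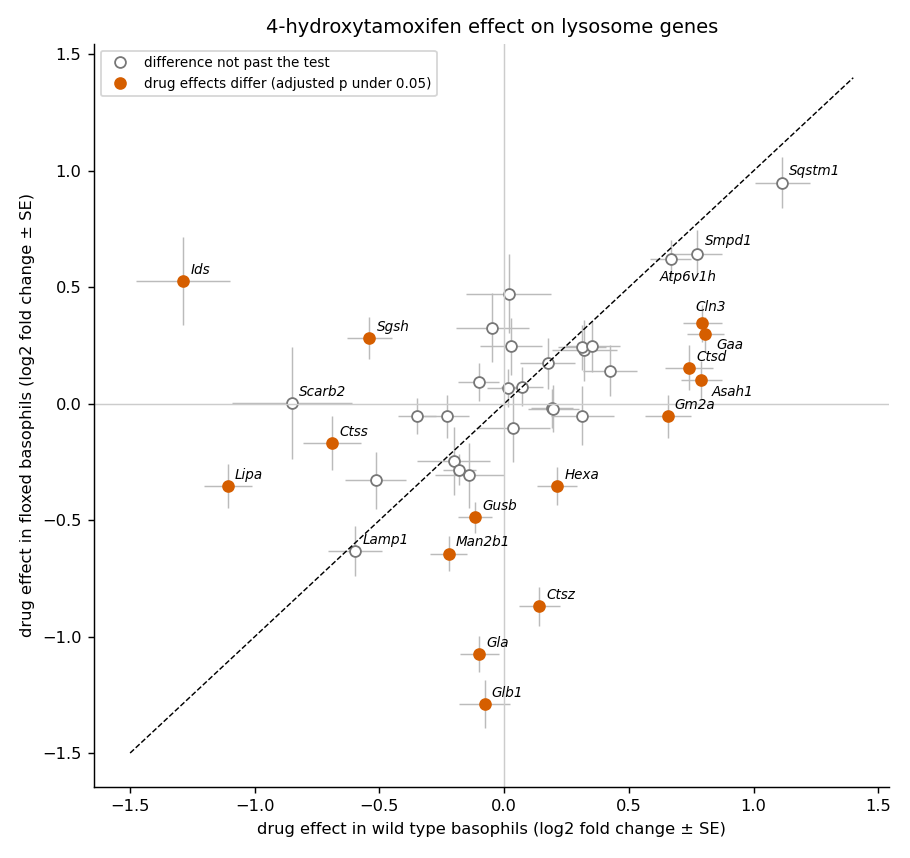
Log2 fold change with 4-hydroxytamoxifen in wild type (horizontal) and floxed basophils (vertical), each with its SE from 3 arrays per group, for each lysosome gene except the saturated Cd63, with a dashed line where the effects are equal. Filled points are the 15 genes whose drug effects differed by the test; Glb1, Gla and Ctsz lie far below the line, Ids and Sgsh above it, and Sqstm1, Smpd1, Atp6v1h and Lamp1 close to it.

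Treated floxed basophils had a mast cell marker sum between those of the other cultured groups and of mast cells. Against mast cells 27 members were higher and 5 lower, 76.2% of the set, with 35.4% of all probes called and 57.7% of those above background, and a median of 0.58 against -0.05 over all probes. Among probes above background 25.5% were higher and 32.2% lower. At least 2-fold differences were called in 16 members and in 8.35% of all probes. The comparison shares its mast cell arrays with that of the wild type cells. Ctsl (5.91 ± 0.12, adjusted p = 8.92e-16), Ctss (4.44 ± 0.12, adjusted p = 9.85e-15, from 2282, 2157 and 2684) and Ctsh (3.64 ± 0.15, adjusted p = 2.81e-12) were the highest. Atp6v0d2 (2.49 ± 0.11, adjusted p = 8.88e-12) and Ctsd (0.99 ± 0.10, adjusted p = 2.91e-07) were also higher, and Lamp1 was not called (0.05 ± 0.11, adjusted p = 0.788). The lowest were Man2b1, lysosomal alpha-mannosidase, at 5302, 5323 and 5477 against 8224, 8209 and 8491 (-0.63 ± 0.07, adjusted p = 3.32e-06), Ids (-0.57 ± 0.19, adjusted p = 0.0254) and Ctsf at 130.5, 149 and 145 (-0.55 ± 0.15, adjusted p = 0.0066). The Ids call was lost without mast cell replicate 1 or 3 and without treated floxed replicate 1 or 2, with adjusted p from 0.0626 to 0.0955, with scaling on bright probes (adjusted p = 0.0607) and without normalization; the Ctsf call was lost without normalization.

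Probes of the same gene did not always follow each other. For Cln3 and Gaa the dimmer probe was at or near background, between 3.7 and 15.7 for Cln3 and between 10.9 and 35.7 for Gaa. For Npc2, the cholesterol-binding protein of the lysosome lumen, the standing probe was not called between the treated genotypes (0.15 ± 0.12, adjusted p = 0.418), whereas its dimmer probe, at 201 to 233 against 658 to 671, fell (-1.54 ± 0.10), as it did untreated (-1.26 ± 0.10). For Cd63 the unsaturated probe was higher in fresh basophils than in mast cells (1.12 ± 0.11) and lower in treated floxed than in treated wild type cells (-1.23 ± 0.11). For Scarb2 the dimmer probe was not called in treated floxed relative to treated wild type cells (-0.22 ± 0.13). For Ctsl the dimmer probe, at 9.3 to 21.4 in mast cells, was at background there and at least 2.23-fold higher in cultured wild type basophils, far less than the standing probe. Ctsb and Neu1 had dimmer probes that ran in the same direction as the standing ones against mast cells.

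Other genes of the pathway, none of them members, were counted in the same comparisons. Of 28 other lysosomal hydrolases and cofactors, 7 were higher and 13 lower in fresh basophils than in mast cells, 12 and 8 in cultured wild type basophils against mast cells, and 8 and 8 in treated floxed relative to treated wild type cells. The shares called were 71.4%, 71.4% and 57.1%, close to the 64.2%, 63.3% and 52.3% of probes above background. Lgmn, asparaginyl endopeptidase, had log2 fold changes of 2.81, 3.62 and -1.89 in these comparisons. Ctsk, another cysteine cathepsin, had 2.80 against mast cells in wild type culture and -0.95 in treated floxed relative to treated wild type cells. Of 28 other membrane proteins, 11 and 9, 15 and 6, and 5 and 8 were higher and lower in the same comparisons, with shares called of 71.4%, 75% and 46.4%. Slc15a3, a lysosomal peptide and histidine transporter, had 3.84, 5.90 and -1.48, and Cd68, a macrosialin of the lysosomal membrane much used as a macrophage marker, had 3.55 in wild type culture against mast cells. Without normalization the counts for fresh basophils turned to 12 hydrolases higher and 5 lower, and 14 membrane proteins higher and 1 lower, and those for wild type culture moved to 16 and 5 hydrolases and 17 and 2 membrane proteins. Between the treated genotypes the membrane proteins were 3 higher and 11 lower with scaling on bright probes, and 6 and 6 without normalization.

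Of 13 other V-ATPase subunits, 9 were higher and 2 lower in cultured wild type basophils than in mast cells, and 3 and 5 in treated floxed than in treated wild type cells, with Atp6v1b2 at 1.72 and -1.33. The shares called were 84.6% and 61.5%, against 63.3% and 52.3% of probes above background. Of 12 genes of mannose 6-phosphate sorting and sulfatase activation, which deliver and activate the hydrolases, 4 and 2, and 5 and 4, were higher and lower in these comparisons, or 50% and 75% called. Sort1, a sorting receptor, had 5.73 in fresh basophils relative to mast cells and -0.61 in treated floxed relative to treated wild type cells, and Gnptab, which makes the mannose 6-phosphate tag, -1.75 and 1.06. Of 23 MiT/TFE factors and nutrient-control genes, 9 were higher and 3 lower in treated floxed than in treated wild type cells, but 6 and 2 with median scaling and 6 and 4 with scaling on bright probes. The share called was 52.2%, no more than that of probes above background (52.3%). Of 24 autophagy genes, 4 were higher and 13 lower in that comparison (70.8%), among them Gabarapl2, an LC3-like protein, at 1.20, and Wipi1, which binds the forming autophagosome, at -1.08. In fresh against cultured wild type basophils, 2 autophagy genes were higher and 15 lower, but 2 and 5 with median scaling and 4 and 7 without normalization. The share called there was 70.8%, against 58.7% of probes above background.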

How the data were processed

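RNA of 18 samples (6 groups of 3) was labelled with a cyanine dye after Trizol and column extraction, per the labels' protocols. The deposited probe intensity values were treated as linear and background-subtracted. The scanner and any earlier normalization were not given in the sources used here. Gene names came from the platform annotation for 21876 of 26423 probes. Intensities were quantile normalized over the 18 arrays and taken as log2(intensity + 16), which understates changes of dim genes. One limma 3.58.1 fit (R 4.3.3) of group means gave the 9 comparisons, with two-sided p-values adjusted by Benjamini and Hochberg's method over the 26423 probes; the script was tested on simulated data. Values above 65000 count as saturated. Precision is limited by the number of arrays.

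The members and lists were chosen with earlier results of these data known. Values for every array are given for the 6 highest and 6 lowest called members in fresh basophils against mast cells and in the treated genotype comparison, for 3 and 3 elsewhere, and for Lamp1, Ctsd and Atp6v0d2 throughout; up to 4 genes per further list are the most changed. Gla in culture, Mcoln1 in the treated genotypes, the members whose sign turned with scaling and the dimmer probes were named after their values were seen. Alternatives covered scaling, offset, filter, trend, separate fits, a replicate block, a 2-fold threshold, single arrays left out and, added after seeing the data, the other probe. Promoter windows are RefSeq's, and a gene counts where any of its windows holds the letters.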

Additional observations from a re-analysis of the deposited data

Results flagged for a closer look

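In 15 members the drug effect in floxed cells differed from that in wild type cells by the interaction test of the limma fit. The difference and the drug effects behind it, on the log2 scale, were as follows. Ids had 1.81 (-1.29 in wild type, 0.53 in floxed cells), Sgsh 0.82 (-0.54 and 0.28), Lipa 0.76 (-1.11 and -0.35) and Ctss 0.52 (-0.69 and -0.17). In Ids and Sgsh the estimates had opposite signs, and in Lipa and Ctss both were below 0, less so in floxed cells.

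Among the lower ones, Glb1 had -1.21 (-0.08 in wild type, -1.29 in floxed cells), Ctsz -1.01 (0.14 and -0.87), Gla -0.98 (-0.10 and -1.08) and Hexa -0.57 (0.21 and -0.35). Gusb had -0.37 (-0.12 and -0.49) and Man2b1 -0.42 (-0.22 and -0.64). In these 6 the estimate in floxed cells was negative, and Ctsz and Hexa had estimates of opposite sign. Gm2a had -0.71 (0.66 and -0.05), Asah1, acid ceramidase, -0.69 (0.79 and 0.10), Ctsd -0.59 (0.74 and 0.15), Gaa -0.51 (0.81 and 0.30) and Cln3 -0.45 (0.80 and 0.35). In these 5 the estimate in wild type cells was positive, and Gm2a had estimates of opposite sign. A floxed value below the wild type one holds for every member of this paragraph by the sign of the difference.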

How the results depend on the processing

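Of 1638 values of the members chosen by the naming rule under other settings, 1570 kept their call and its direction or stayed without a call. A change of sign in a value called under neither setting was not counted as a reversal. Another 57 kept direction without passing, most of them under the 2-fold threshold. A further 6, all of Lamp1 in fresh basophils against mast cells, passed where they had not. The remaining 5 reversed, all 5 with the other probe. Cln3 had 0.17 in fresh basophils against mast cells and 0.21 in untreated floxed against wild type cells. Scarb2 had -0.22 between the treated genotypes and 0.16 for the drug in wild type cells, and Ctsl had 0.39 in fresh against cultured cells. Outside that rule, sign changes were looked for under the scaling settings only. Without normalization, Mcoln1 in fresh basophils against mast cells reversed, from -0.31 to 0.23, with a call in both. Lamp2, Npc1, Hexa and Smpd1 changed sign there and lost their calls. Idua, Naglu, Arsa, Atp6v1a and Atp6v1h, uncalled and negative before, were called higher. Atp6v0d1 was then called lower for the drug in wild type cells (-0.29). The saturated Cd63 was called lower in fresh basophils with scaling on bright probes (-0.52). The number of called members changed by over 1.5 times with the 2-fold threshold alone, by its construction: to 15 in fresh basophils against mast cells, 17 in cultured wild type and 16 in treated floxed cells against mast cells, 15 in fresh against cultured cells, 5 treated and 1 untreated in floxed against wild type cells, 3 for the drug in wild type, 2 in floxed cells and 3 for the difference. With single arrays left out, counts ran from 27 to 30, 32 to 33, 31 to 32, 29 to 31, 22 to 23, 11 to 13, 16 to 19, 13 to 17 and 14 to 16 in the same order.

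With the replicate number as a block, 32, 33, 32, 30, 23, 13, 19, 14 and 15 members were called in that order; same-numbered arrays did not deviate together (r from -0.39 to 0.14), so the numbers are not read as pairs. Saturation limits Cd63, and background limits Tfeb, Ids and Arsb.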
